A study of Mus musculus with 17 samples.

Results

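The 9 genes described here belong to the *Meis*, *Pbx*, *Pknox* and *Tgif* groups of the TALE (3-amino-acid loop extension) class of homeobox genes. They were taken from the deposited expression table by gene symbol and do not cover every gene of these groups, since *Pbx4* is treated with other genes of the class. They are *Meis1*, *Meis2*, *Meis3*, *Pbx2*, *Pbx3*, *Pknox1*, *Pknox2*, *Tgif1* and *Tgif2*, 9 of the 54532 genes listed, and all 9 were among the 21871 genes with enough expression to be tested. They were followed in R1/E mouse embryonic stem cells, an established line from an early embryo. *Usb1* encodes a nuclease that shortens the tail of U6 snRNA, a part of the spliceosome. Wild-type cells and *Usb1* knockout cells made by CRISPR/Cas9 were sequenced without retinoic acid (RA, day 0) and after 1 and 3 days of RA, to ask whether *Usb1* is needed for the cells to differentiate. There were 2 libraries of wild-type cells at day 0 and 3 in each of the other 5 groups. A single knockout line (KO-1) was sequenced, so the loss of *Usb1* and other differences between the lines cannot be told apart.

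TALE proteins bind DNA through a homeodomain that is lengthened by a short loop. Meis and Pknox (also called Prep) proteins pair with Pbx proteins, help to hold them in the nucleus, and form larger complexes with Hox proteins on the enhancers of patterning genes, among them those of the hindbrain. Tgif proteins lack the Pbx-binding surface, act as repressors with co-repressor and SMAD partners, and are known to dampen retinoid and TGF-β signals. RA, which steers embryonic stem cells towards neural and endodermal fates, is known to induce *Hox* genes and several TALE genes.

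Expression was measured as TPM, read numbers scaled by the length of the gene and by the total of the library, and the 17 libraries held between 15404379 and 17300186 reads assigned to genes. Wild-type replicate 1 at day 0 stood apart from the rest, with only 239 genes at 1 read. Its partner, replicate 2, had 1352 such genes, and knockout cells of that day had 2150 to 2361, so low values at day 0 in wild-type cells are less certain than the depth alone would make them. Among the later libraries, knockout replicate 1 at day 3 also had fewer such genes (1224). *Usb1* mRNA was lower in every knockout library, with 15.2 to 17.9 TPM against 37.1 and 40.0 TPM in wild-type cells at day 0. Its log2 fold change was −1.20 at day 0, −1.34 at day 1 and −0.93 at day 3, which leaves the mutant mRNA detected. The 6 pluripotency markers (*Pou5f1*, *Nanog*, *Sox2*, *Zfp42*, *Esrrb* and *Klf4*) were all above 1 TPM in every group, and their summed level in wild-type cells fell from 5063 to 5152 TPM at day 0 to 2836 to 2922 TPM at day 1 and 312 to 353 TPM at day 3.

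The genes lie apart in the genome (GRCm38). *Meis1* is at chr11:18879817-19018985, *Meis2* at chr2:115863064-116065839, *Pbx3* at chr2:34171457-34373142, *Pknox2* at chr9:36890982-37147407 and *Tgif1* at chr17:70844205-70853546, all on the minus strand. *Meis3* at chr7:16175090-16186504, *Pbx2* at chr17:34591266-34597400, *Pknox1* at chr17:31564734-31607693 and *Tgif2* at chr2:156840007-156855570 are on the plus strand. *Pbx2* shares 227 exon bases with *Gpsm3* on the same strand, *Meis1* shares 1029 with *Gm37818* on the same strand and 896 with the antisense gene *Gm16140*, and *Tgif2* shares 2171 with *5430405H02Rik* on the opposite strand. *Pknox1* overlaps an antisense gene over 155 exon bases. Whether the authors counted by strand is not given in the sources used here, so reads on these shared stretches cannot be assigned with certainty.

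Promoter windows of RefSeq (250 bases before to 50 bases after a start, GRCm38.p6) were found for 6 of the 9 genes and were not found for *Pbx3*, *Pknox1* and *Pknox2*. The stretches below are shown because the 3 *Meis* genes and *Pbx2* were called higher at day 3 in both genotypes. Each is the longest unbroken run of bases in the window that lies upstream of the start and outside annotated exons. It is written 5′ to 3′ on the strand of the gene, with CpG dinucleotides in capitals. They are chr11:19018986-19019219 for *Meis1*, chr2:116064722-116064801 for *Meis2*, chr7:16175185-16175274 for *Meis3*, and chr17:34592009-34592258 for *Pbx2*. The stretches of *Meis2*, *Meis3* and *Pbx2* lie within the gene spans given above, so their windows belong to a start inside the annotated gene. Only that of *Meis1* lies outside its gene span.
Meis1: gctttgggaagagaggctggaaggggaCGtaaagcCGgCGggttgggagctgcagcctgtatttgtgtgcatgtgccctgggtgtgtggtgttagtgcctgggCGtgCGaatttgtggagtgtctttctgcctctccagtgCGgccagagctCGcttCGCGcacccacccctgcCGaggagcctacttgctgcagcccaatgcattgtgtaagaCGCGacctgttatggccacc
Meis2: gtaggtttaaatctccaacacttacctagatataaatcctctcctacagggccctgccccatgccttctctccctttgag
Meis3: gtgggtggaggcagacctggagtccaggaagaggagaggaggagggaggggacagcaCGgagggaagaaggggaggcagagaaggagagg
Pbx2: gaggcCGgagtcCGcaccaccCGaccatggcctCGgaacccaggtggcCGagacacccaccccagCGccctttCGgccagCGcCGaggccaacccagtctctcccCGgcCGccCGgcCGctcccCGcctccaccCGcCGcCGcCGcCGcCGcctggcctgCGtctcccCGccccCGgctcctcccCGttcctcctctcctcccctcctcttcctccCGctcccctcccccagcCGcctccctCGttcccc

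The whole window of *Pbx2* held 29 CpG dinucleotides, and 12.9% of the 32851 windows of the mouse genome held as many or more. For *Meis3* the number was 21 (24.8% of windows), for *Meis1* 15 (34.6%) and for *Meis2* 13 (37.9%), with a median of 7 over all windows. The run of 80 bases printed for *Meis2* holds none. On both strands, the letters AGGTCA (a half-site of RA receptors, also part of the direct repeats DR5 and DR2, which hold it 2 times with 5 or 2 bases between), TGACAG (the core bound by Meis proteins) and TGATNNAT (bound by Pbx with Hox) were searched. They occurred in 16.3%, 19.2% and 8.85% of all windows, and each direct repeat in 3 windows. None of the 5 was present in the windows of *Meis1*, *Meis2*, *Meis3* and *Pbx2*, which says only that these letters are not in these 300 bases.

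The first question was how each gene responds to RA in wild-type cells. After 1 day of RA, *Meis1*, *Meis2*, *Meis3*, *Pbx2*, *Pbx3* and *Pknox2* rose at least 2-fold (adjusted p under 0.05 in limma on the log2(TPM + 1) scale), 6 of 9 genes, while 9.99% of all genes tested rose by this rule. No member fell at least 2-fold, where 3.88% of genes did. The median log2 fold change of the 9 genes was 1.55, against 0.17 for all genes tested. By day 3, the 3 *Meis* genes, *Pbx2* and *Pknox2* were at least 2-fold above day 0 (16.1% of genes tested) and *Tgif1* was at least 2-fold below it (9.68% of genes tested), with a median over the 9 genes of 1.31 and over all genes of 0.10.

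**Figure D1:**
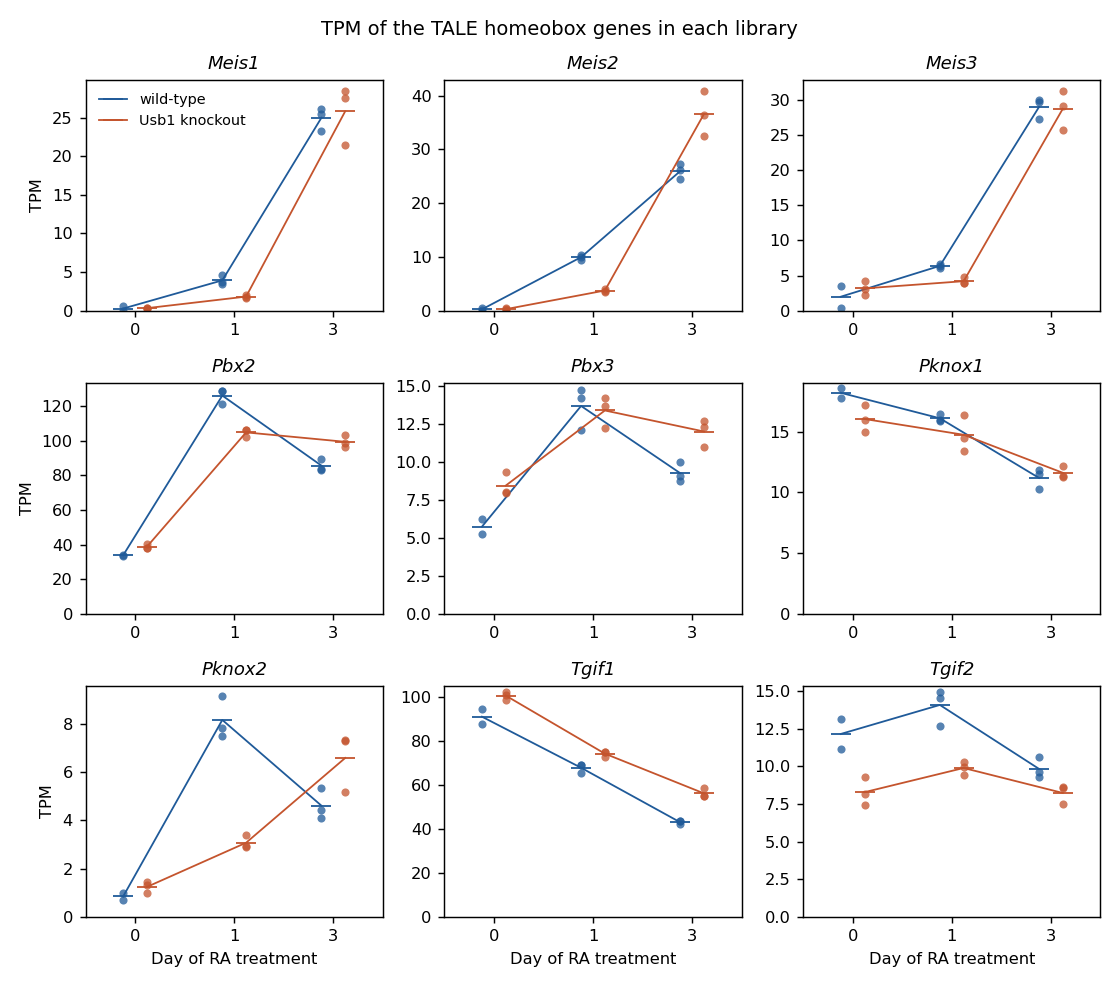
TPM (linear axis from 0) of each of the 9 genes against the day of RA treatment, with a point for each library, a horizontal mark for the group mean, blue for wild-type and orange for *Usb1* knockout cells. The *Meis* genes climb to 21.4 to 40.9 TPM at day 3 in both genotypes, and at day 1 the wild-type libraries of *Meis1*, *Meis2*, *Meis3*, *Pbx2*, *Pknox2* and *Tgif2* all lie above the knockout libraries. Of all genes tested, 39.8% had genotypes that do not overlap at day 1, in either direction.

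*Meis1*, a Pbx partner known from limb and blood development, went from close to nothing to a moderate level. Its TPM in wild-type cells was 0 and 0.536 at day 0 (0 and 25 reads, where 3 reads would be 0.0596 TPM in the first library), 4.63, 3.39 and 3.74 at day 1, and 26.2, 23.3 and 25.5 at day 3. The 3 days do not overlap. The log2 fold change was 1.98 ± 0.19 (SE) at day 1 (adjusted p = 1.7e-06) and 4.39 ± 0.19 at day 3 (adjusted p = 9.4e-11), and from day 1 to day 3 the gene rose by a further 2.41 ± 0.17.

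*Meis2*, which shares with *Meis1* a role in the hindbrain and limb, made most of its rise on the log2(TPM + 1) scale on the first day. It had 0.0695 and 0.394 TPM at day 0, then 10.4, 9.36 and 10.04 TPM after 1 day, and 27.3, 24.4 and 26.2 TPM at day 3. On the log2(TPM + 1) scale this was a rise of 3.16 ± 0.15 at day 1 and 4.46 ± 0.15 at day 3, so 70.9% of the rise had taken place by day 1, against 45.1% for *Meis1* and 43.3% for *Meis3*. These shares compare group means, were not tested and depend on the scale. In TPM itself the mean of *Meis2* was 0.232, 9.95 and 26.0 at the 3 days, so the larger step came after day 1. As ratios of mean TPM, *Meis1* rose 14.6-fold from day 0 to day 1 and 6.38-fold from day 1 to day 3. For *Meis2* these ratios were 42.9 and 2.61.

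*Meis3*, a hindbrain member of the family, was already present at day 0 in one wild-type library and scarce in the other, with 0.396 and 3.56 TPM (6 and 50 reads). It reached 6.09, 6.36 and 6.66 TPM at day 1 and 30.0, 27.4 and 29.7 TPM at day 3. The first-day rise of 1.55 ± 0.34 (adjusted p = 0.0022) rests on wild-type replicate 1. Without that library it was 0.69 (adjusted p = 0.02), under the 2-fold limit, and it was not significant when the 5 libraries of the comparison were fitted alone (adjusted p = 0.13). The rise of 3.57 ± 0.34 by day 3 passed under every alternative run.

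The *Pbx* genes encode the partners on which Meis and Pknox proteins depend for much of their DNA binding, and *Pbx2* and *Pbx3* peaked at day 1. *Pbx2*, the member with the highest TPM at day 1, was at 33.6 and 34.1 TPM at day 0, rose to 129, 121 and 129 TPM at day 1, and stood at 83.9, 89.8 and 83.4 TPM at day 3. All 3 groups were apart, with log2 fold changes of 1.87 ± 0.05 at day 1, 1.31 ± 0.05 at day 3, and −0.55 ± 0.05 from day 1 to day 3 (adjusted p = 2.7e-07, less than 2-fold). *Pbx3* followed the same course at a lower level, with 6.20 and 5.25, then 12.1, 14.2 and 14.7, then 9.06, 8.72 and 9.95 TPM. Its rise at day 1 was 1.12 ± 0.12 (adjusted p = 5.8e-06), and 0.94 when the libraries were scaled to an equal median or quantile normalized, just under the 2-fold limit.

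Of the *Pknox* genes, which encode the other group of Pbx partners, only *Pknox2* rose. It went from 0.709 and 0.983 TPM to 9.16, 7.52 and 7.84 TPM at day 1 (log2 fold change 2.31 ± 0.18, adjusted p = 2.3e-07), and was at 5.33, 4.09 and 4.42 TPM at day 3, lower than at day 1 by less than 2-fold (−0.71 ± 0.16, adjusted p = 0.0023). *Pknox1*, the broadly expressed member, had 17.8 and 18.6 TPM at day 0, 15.9, 16.5 and 15.9 TPM at day 1, and 11.5, 10.3 and 11.8 TPM at day 3. Its change by day 3 was −0.66 ± 0.10 (adjusted p = 4.4e-05), less than 2-fold.

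The *Tgif* genes, the repressors of the class, did not rise. *Tgif1* had the highest TPM of the 9 genes at day 0, 87.7 and 94.6, then 69.1, 65.5 and 69.1 at day 1 and 43.5, 42.3 and 43.4 at day 3, with no overlap between days. The log2 fold change was −0.42 ± 0.05 at day 1 and −1.06 ± 0.05 at day 3 (adjusted p = 3.8e-10). *Tgif2* had 13.2 and 11.1 TPM at day 0, 14.97, 14.6 and 12.7 at day 1, and 9.31, 9.60 and 10.6 at day 3, and among its changes in wild-type cells only the one from day 1 to day 3 passed the test, by less than 2-fold (−0.48 ± 0.11, adjusted p = 0.0022).

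**Figure D2:**
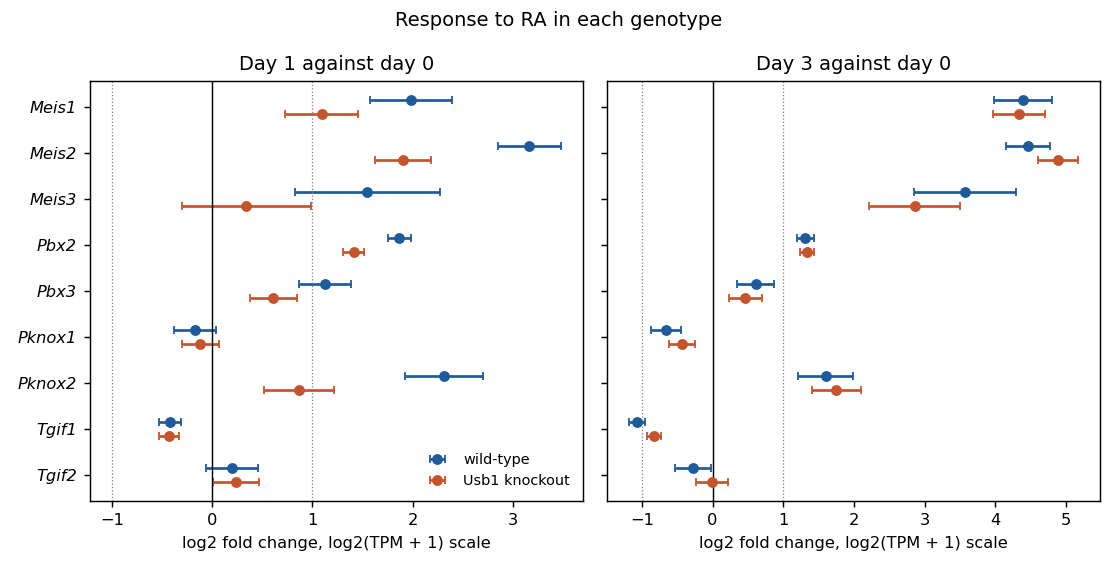
log2 fold change of each gene from day 0 to day 1 (left) and from day 0 to day 3 (right) on the log2(TPM + 1) scale, in wild-type (blue) and *Usb1* knockout cells (orange), with bars for the 95% confidence interval from limma and dotted lines at a 2-fold change. At day 1 the knockout points of *Meis1*, *Meis2*, *Meis3*, *Pbx2*, *Pbx3* and *Pknox2* lie to the left of the wild-type points, and at day 3 the intervals of the genotypes overlap for 8 of the 9 genes, all but *Tgif1*.

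In *Usb1* knockout cells fewer of the genes passed at day 1. At that day, *Meis1*, *Meis2* and *Pbx2* rose at least 2-fold, 3 of 9 genes where 4.07% of all genes tested did, with a median over the 9 genes of 0.61 against 0.02 for all genes. By day 3 the 5 genes that had risen in wild-type cells (the *Meis* genes, *Pbx2* and *Pknox2*) had also risen in knockout cells, where 13.8% of genes tested did, with a median of 1.34 against 0.03. From day 1 to day 3 the 3 *Meis* genes rose in both genotypes, while 7.70% of genes rose in wild-type and 9.60% in knockout cells. By adjusted p alone, with no limit on the fold, all 9 genes differed between day 1 and day 3 in wild-type cells (43.8% of genes tested), and in knockout cells 6 did at day 1 (27.7%), 8 at day 3 (51.5%) and 6 between day 1 and day 3 (44.9%).

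Compared directly, the knockout differed most from wild-type cells at day 1. No gene passed the call at day 0 (3.05% of genes tested were called in either direction) or at day 3 (1.29%), whereas at day 1 *Meis2* and *Pknox2* were at least 2-fold lower in knockout cells, as were 1.76% of genes tested. By adjusted p alone, without the 2-fold limit, 3 genes differed at day 0 (*Pbx2* and *Pbx3* higher, *Tgif2* lower), 5 at day 1 (*Meis1*, *Meis2*, *Pbx2*, *Pknox2* and *Tgif2*, all lower) and 3 at day 3 (*Meis2*, *Pbx2* and *Tgif1*, all higher), against 11.9%, 17.3% and 7.52% of all genes tested. The median of the 9 genes was 0.14 at day 0, −0.47 at day 1 and 0.21 at day 3. All genes together had a median of −0.13 at day 1, so that differences at that day are to be read against this shift, and of 0 at day 3.

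**Figure D3:**
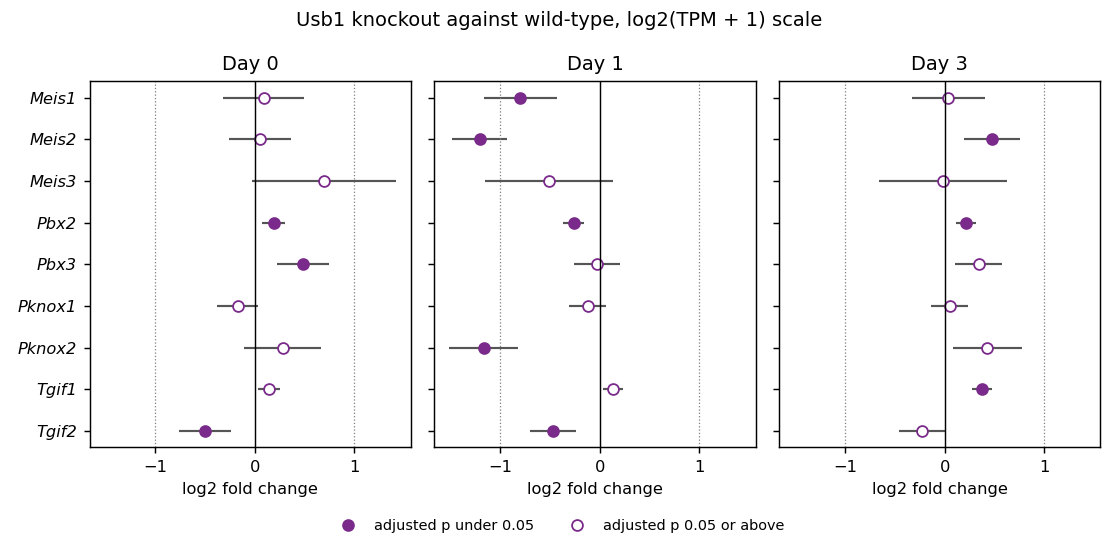
log2 fold change of *Usb1* knockout against wild-type cells for each gene at day 0, 1 and 3 on the log2(TPM + 1) scale, with lines for the 95% confidence interval from limma, filled points for an adjusted p under 0.05, open points for 0.05 or above, and dotted lines at a 2-fold change. *Meis2* (−1.21) and *Pknox2* (−1.17) lie past the 2-fold line at day 1, and no gene does at day 0 or day 3.

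*Meis2* was lower in knockout cells at day 1 and higher at day 3. In knockout cells its TPM was 0.180, 0.400 and 0.216 at day 0, 3.998, 3.52 and 3.70 at day 1, and 32.4, 36.4 and 40.9 at day 3. The knockout libraries overlapped those of wild-type cells at day 0, lay below all of them at day 1, and lay above all of them at day 3. Groups that do not overlap, in either direction, were found for 39.8% of all genes tested at day 1 and 22.0% at day 3. The difference was −1.21 ± 0.13 at day 1 (95% CI −1.49 to −0.93, adjusted p = 2.8e-05), a mean TPM 2.66-fold lower, and 0.48 ± 0.13 at day 3 (adjusted p = 0.039). The latter lost its adjusted p under several alternatives, among them quantile normalization (adjusted p = 0.06), a pseudocount of 0.1 (adjusted p = 0.48), the libraries of the comparison alone (adjusted p = 0.084), the fit with a replicate block (adjusted p = 0.065) and the fit without knockout replicate 3 at day 3 (adjusted p = 0.16).

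The rise of *Meis2* from day 0 to day 1 was smaller in knockout than in wild-type cells (difference −1.26 ± 0.20, adjusted p = 0.0055), and the rise from day 1 to day 3 was larger by 1.68 ± 0.18 (adjusted p = 9.2e-05). *Pknox2* was the other gene called in both of these tests of the response itself. The first test called 0.672% of all genes tested as smaller in knockout cells and the second 1.72% as larger. In either direction the first called 188 genes (0.860%), and 101 to 200 when a library of a group other than wild-type day 0 was left out. The share hangs on the 2 wild-type libraries of day 0, of which replicate 1 stood apart. Leaving either out leaves that group with 1 library, and without replicate 2 only replicate 1 remains. By adjusted p alone they found 3 and 5 of the 9 genes, against 2.23% and 7.61% of all genes, while the test from day 0 to day 3 found none of the 9 (6.15% of all genes, and 2.42% with the 2-fold limit). The day 3 against day 1 difference of *Meis2* was called under every alternative run. The day 1 against day 0 difference was not called with quantile normalization (−0.51, adjusted p = 0.28), with a pseudocount of 0.1 (−1.68, adjusted p = 0.08) or with voom on the recovered reads (−1.95, adjusted p = 0.11).

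*Pknox2* was the other gene called at day 1. Its knockout libraries had 0.985, 1.44 and 1.302 TPM at day 0, 2.93, 3.41 and 2.88 TPM at day 1, and 5.17, 7.29 and 7.33 TPM at day 3. At day 1 these lie well below the wild-type values, and the difference of −1.17 ± 0.16 (95% CI −1.52 to −0.82, adjusted p = 0.00024) corresponds to a mean TPM 2.66-fold lower. Scaled to an equal median it was −0.97 and quantile normalized −0.98, both just inside the 2-fold limit with adjusted p under 0.05. The groups overlapped at day 3 (0.43 ± 0.16, adjusted p = 0.15).

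Whereas *Pknox2* in wild-type cells was lower at day 3 than at day 1, in knockout cells it was still higher at day 3 (0.89 ± 0.16 on the log2(TPM + 1) scale, adjusted p = 0.00038, a mean TPM 2.15-fold higher, and called with a pseudocount of 0.1). The genotypes therefore differed in both steps, by −1.45 ± 0.24 from day 0 to day 1 (adjusted p = 0.0079) and by 1.60 ± 0.23 from day 1 to day 3 (adjusted p = 0.00074). The former was −0.98 with an adjusted p of 0.063 after quantile normalization.

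*Meis1* was lower in knockout cells at day 1 as well, by less than 2-fold on the log2(TPM + 1) scale, which understates changes of genes at low TPM. The knockout libraries had 0.391, 0.318 and 0.247 TPM at day 0, 1.79, 1.96 and 1.69 TPM at day 1, and 21.4, 27.6 and 28.5 TPM at day 3. At day 1 all 3 lay below the wild-type libraries (−0.80 ± 0.17, adjusted p = 0.0055, mean TPM 2.16-fold lower), and with a pseudocount of 0.1 the adjusted p was 0.15. The day 3 values overlapped (0.04 ± 0.17, 95% CI −0.33 to 0.40).

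On the log2(TPM + 1) scale, *Meis1* thus had a rise by day 1 of 1.10 ± 0.17 in knockout cells, 25.2% of its rise by day 3. For *Meis2* this share was 39.0% and for *Meis3* 11.9%. In the tests of the response, *Meis1* had a difference of −0.89 ± 0.25 from day 0 to day 1 (adjusted p = 0.087) and of 0.83 ± 0.24 from day 1 to day 3 (adjusted p = 0.049). Leaving out each of 14 of the 17 libraries in turn brought the latter to an adjusted p of 0.053 to 0.13, and it was 0.091 with an equal median, 0.078 with a replicate block and 0.03 with voom. The former was −1.20 without wild-type replicate 2 at day 0, a fit that leaves replicate 1, which stood apart, as the only wild-type library of that day.

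*Meis3* in knockout cells had 2.25, 4.16 and 3.08 TPM at day 0, 4.75, 3.90 and 3.93 TPM at day 1, and 29.2, 31.4 and 25.7 TPM at day 3. Days 0 and 1 overlapped (0.34 ± 0.30, adjusted p = 0.46), and the whole of the detected rise came between day 1 and day 3 (2.52 ± 0.30, adjusted p = 7.1e-06). The knockout libraries lay below the wild-type libraries at day 1, with a difference of −0.51 ± 0.30 that did not pass the test (adjusted p = 0.29) and did with the libraries of the comparison alone (adjusted p = 0.035). At day 0 the difference was 0.70 ± 0.34 (adjusted p = 0.2), and its sign hangs on 1 library, since it was −0.16 without wild-type replicate 1 and 1.55 without wild-type replicate 2.

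*Pbx2* crossed over with a smaller amplitude. In knockout cells it had 38.0, 38.2 and 40.2 TPM at day 0, 106, 106 and 102 TPM at day 1, and 96.2, 103 and 98.8 TPM at day 3. The genotypes did not overlap at any day, with the knockout higher at day 0 (0.19 ± 0.05, adjusted p = 0.034), lower at day 1 (−0.26 ± 0.05, adjusted p = 0.0021) and higher at day 3 (0.21 ± 0.05, adjusted p = 0.014), all less than 2-fold. Non-overlapping groups were found for 36.6%, 39.8% and 22.0% of all genes tested at these days.

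Each of these differences of *Pbx2* lost its adjusted p under some alternative. Scaled to an equal median, the difference at day 1 was −0.02 (adjusted p = 0.91) and that at day 3 was 0.23 (adjusted p = 0.1). With the libraries of the comparison alone, the adjusted p was 0.12 at day 0 and 0.095 at day 3, and with a replicate block it was 0.057 at day 0. The differences in response, −0.46 ± 0.07 from day 0 to day 1 (adjusted p = 0.0062) and 0.48 ± 0.07 from day 1 to day 3 (adjusted p = 0.00073), were −0.34 (adjusted p = 0.16) and 0.26 (adjusted p = 0.23) with an equal median. From day 1 to day 3 *Pbx2* was lower in wild-type cells as given above, and in knockout cells the change was −0.08 ± 0.05 (adjusted p = 0.22), or −0.30 with an equal median (adjusted p = 0.0054).

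*Pbx3* was at 9.33, 7.92 and 8.03 TPM in knockout cells at day 0, above both wild-type libraries (0.49 ± 0.12, adjusted p = 0.021, and 0.2 with the libraries of the comparison alone). At day 1 it had 14.2, 13.7 and 12.2 TPM, which overlap the wild-type values, and at day 3 it had 10.97, 12.3 and 12.7 TPM, again above them (0.34 ± 0.11, adjusted p = 0.079). That difference had an adjusted p of 0.047 with an equal median, 0.042 with quantile normalization and 0.041 with voom. The change by day 1 in knockout cells was 0.61 ± 0.11, less than 2-fold.

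*Pknox1* in knockout cells had 17.2, 14.97 and 16 TPM at day 0, 16.3, 14.5 and 13.4 TPM at day 1, and 11.4, 11.3 and 12.2 TPM at day 3. It was lower at day 3 than at day 0 by less than 2-fold (−0.43 ± 0.09, adjusted p = 0.00067), and at no day did the genotypes differ at an adjusted p under 0.05. The 95% confidence intervals of the knockout effect were −0.38 to 0.04, −0.31 to 0.06 and −0.14 to 0.24 at the 3 days, so a 2-fold difference lies outside each.

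The *Tgif* genes differed between the genotypes in opposite directions, by less than 2-fold. *Tgif1* had 101, 98.9 and 102 TPM in knockout cells at day 0, 75.1, 72.7 and 75.1 TPM at day 1, and 54.9, 54.8 and 58.8 TPM at day 3. Every knockout library was above every wild-type library of its day, with a difference that passed the test at day 3 (0.38 ± 0.05, adjusted p = 0.00018) and did not reach 2-fold. *Tgif2* had 8.14, 9.29 and 7.42 TPM, then 9.41, 9.94 and 10.3 TPM, then 7.53, 8.61 and 8.55 TPM, and every knockout library was below every wild-type library of its day. Of all genes tested, 36.6%, 39.8% and 22.0% had genotypes that do not overlap at day 0, 1 and 3, in either direction.

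The difference for *Tgif2* was −0.50 ± 0.12 at day 0 (adjusted p = 0.016), −0.47 ± 0.11 at day 1 (adjusted p = 0.0088) and −0.23 ± 0.11 at day 3 (adjusted p = 0.26). With an equal median these were −0.39 (adjusted p = 0.069) at day 0 and −0.24 (adjusted p = 0.2) at day 1, so the adjusted p does not hold under that scaling. *Tgif1* fell by 0.83 ± 0.05 on the log2 scale by day 3 in knockout cells, less than 2-fold, and its change from day 1 to day 3 differed between the genotypes by 0.25 ± 0.07 (adjusted p = 0.036), a difference of 0.03 (adjusted p = 0.93) with an equal median.

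Ranked by mean TPM, the groups of *Meis1* and *Meis2* ran in the same order up to wild-type cells at day 3, namely wild-type and knockout at day 0 (which overlap), knockout at day 1, wild-type at day 1 and wild-type at day 3, with *Meis2* highest in knockout cells at day 3 and *Meis1* overlapping there. For *Pbx2* the order from the lowest was wild-type day 0, knockout day 0, wild-type day 3, knockout day 3, knockout day 1 and wild-type day 1, where knockout day 3 and day 1 overlap. *Pknox2* was lowest at day 0 in both genotypes and highest in wild-type cells at day 1. At day 3 the genotypes overlapped between these. *Meis3* was apart only between knockout and wild-type cells at day 1 and between day 1 and day 3, and *Pbx3*, *Pknox1* and *Tgif2* had overlapping neighbours at 3 steps each. For *Tgif1* all 6 groups were apart, running down from knockout day 0 to wild-type day 3.

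Added up, these changes altered the make-up of the summed TPM of the 9 genes. These sums leave out *Pbx4*, whose group means ran from 11.4 TPM (wild-type day 0) to 18.1 TPM (wild-type day 1). *Tgif1* and *Tgif2* together held 62.9% of the summed TPM of the 9 genes in wild-type cells at day 0, 30.8% at day 1 and 21.7% at day 3. The *Meis* genes went from 1.47% to 7.596% and then 32.8%, and *Pbx2* and *Pbx3* from 24.1% to 52.5% and then 39.0%. In knockout cells the *Meis* share was 2.12% at day 0, 4.23% at day 1 and 31.9% at day 3.

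The summed *Meis* level at day 1 in 3 libraries each was 20.2 ± 1.04 TPM (SD) in wild-type and 9.75 ± 0.685 TPM in knockout cells, and at day 3 it was 80.0 ± 4.33 and 91.2 ± 7.09 TPM. The *Pknox* sum was 24.3 ± 0.726 TPM in wild-type and 17.8 ± 1.49 TPM in knockout cells at day 1, and the sum of all 9 genes was 266 ± 6.94 and 230 ± 4.63 TPM. At day 3 the order was turned, with 244 ± 3.29 TPM in wild-type and 285 ± 13.9 TPM in knockout cells.

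**Figure D4:**
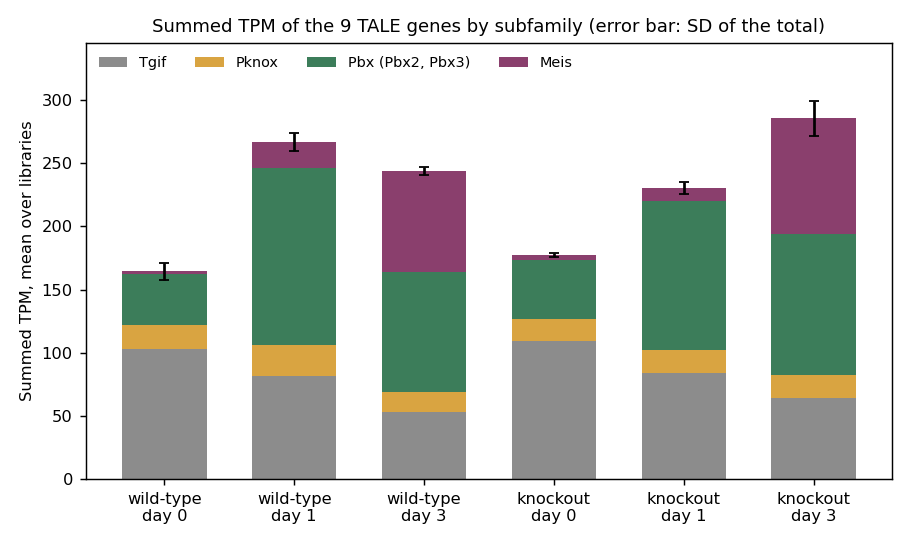
Summed TPM of the 9 genes, as the mean over the libraries of each group, stacked by subfamily (*Tgif*, *Pknox*, *Pbx2* with *Pbx3*, and *Meis*), with error bars for the SD of the total (2 libraries in wild-type cells at day 0, 3 in the other groups). The *Tgif* part shrinks and the *Meis* part grows with RA in both genotypes, and at day 1 the *Meis* part is 20.2 TPM in wild-type and 9.75 TPM in knockout cells.

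Other genes of the class were examined from a list. Of 8 (*Pbx4*, *Irx1* to *Irx6* and *Mkx*), 7 had enough expression to be tested, and 3 rose at day 1 and 4 at day 3 in each genotype. Of all genes tested, 9.99% rose at day 1 and 16.1% at day 3 in wild-type cells, and 4.07% and 13.8% in knockout cells. *Irx* genes are Iroquois homeobox genes, known for their part in neural patterning. *Irx3* rose the most of these, by 4.27 ± 0.21 at day 1 and 5.05 ± 0.21 at day 3 in wild-type cells and by 3.56 ± 0.19 and 5.82 ± 0.19 in knockout cells.

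Between day 1 and day 3, 2 of these 7 genes rose more in knockout cells (1.72% of genes tested), namely *Irx3* (1.48 ± 0.27, adjusted p = 0.0037) and *Irx4* (1.12 ± 0.27, adjusted p = 0.023). With a pseudocount of 0.1, *Irx3* had a difference of 1.52 that did not pass (adjusted p = 0.35). *Irx4*, at under 3 TPM in every library, was not called with an equal median, quantile normalization, a pseudocount of 0.1 or voom, nor without each of 5 libraries. The only difference called at day 0 was *Irx2*, lower in knockout cells (−1.19 ± 0.23, adjusted p = 0.005), and it was not called without wild-type replicate 1 (−0.69, adjusted p = 0.054).

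*Hox* genes of paralogue groups 1 to 5 encode DNA-binding partners of the Meis-Pbx pair. Of 15 listed, 13 were tested, and all 13 rose at day 1 in wild-type cells (median log2 fold change 3.84) and 12 of 13 in knockout cells (median 3.19). Over all genes tested, 9.99% rose in wild-type and 4.07% in knockout cells, and 1.76% were called lower in the knockout at day 1. At day 1, 2 were at least 2-fold lower in the knockout, *Hoxb1* (−2.04 ± 0.12, adjusted p = 9.1e-08) and *Hoxb3* (−1.08 ± 0.19, adjusted p = 0.0016), and the latter was −0.89 with an equal median. *Hoxb1*, a marker of the hindbrain that Pbx and Hox proteins are known to regulate together, had differences in response of −2.04 ± 0.17 from day 0 to day 1 and 2.20 ± 0.16 from day 1 to day 3, the same signs as *Meis2* and *Pknox2*. The former was not called with voom (−2.29, adjusted p = 0.17). At day 3, 1 of the 13 was called lower in knockout cells, where 1.29% of genes tested were called in either direction. From day 0 to day 3 the response of 2 was called smaller in knockout cells (2.42% of genes tested in either direction). From day 1 to day 3 the response was called larger for 1 of the 13 and smaller for 1.

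Among 5 other partners of TALE proteins, 4 were tested. *Pbxip1*, whose product binds Pbx proteins, rose by day 3 (2.03 ± 0.14 in wild-type and 1.51 ± 0.13 in knockout cells), and *Mybbp1a*, whose product binds Pknox1, fell (−1.38 ± 0.07 and −1.17 ± 0.06). Among 10 co-repressor and SMAD partners of Tgif proteins, *Ctbp2* fell in both genotypes by day 1 (−2.14 ± 0.08 in wild-type and −1.37 ± 0.07 in knockout cells) and *Skil*, an inhibitor of SMAD signalling, rose (1.61 ± 0.13 and 1.58 ± 0.11). None of the 10 was called between the genotypes at any of the 3 days, where few genes were. In either direction 3.05% of genes tested were called at day 0 and 1.29% at day 3, and at day 1 1.76% were called lower. By adjusted p alone, 4 of the 10 differed at day 0 (all lower in knockout cells). At day 1 it was 5 (4 lower, 1 higher) and at day 3 it was 1 (higher). The shares over all genes tested were 11.9%, 17.3% and 7.52%.

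The RA pathway itself differed gene by gene. Of 12 tested genes for RA receptors, binding proteins and enzymes, 5 rose at day 1 in wild-type cells and 4 in knockout cells. Over all genes tested, 9.99% and 4.07% did. The rises were led by *Cyp26a1*, whose product degrades RA (4.96 in wild-type and 6.65 in knockout cells), and *Dhrs3*, a retinal reductase (4.44 and 4.201). Next came *Crabp2*, which carries RA to its receptors (3.72 and 1.78), and *Rarb*, an RA receptor (2.67 and 2.13). At day 1, 2 were called lower in the knockout (1.76% of genes tested), *Crabp2* (−2.78 ± 0.23, adjusted p = 2.5e-06) and *Cyp26b1*, another RA-degrading enzyme (−1.11 ± 0.23, adjusted p = 0.005). The latter was just under 2-fold with an equal median (−0.94) and not significant with a pseudocount of 0.1 (adjusted p = 0.067). The first-day response of *Crabp2* differed by less than its level at day 1. That difference was −1.94 with the libraries of the comparison alone (adjusted p = 0.056) and −1.74 with voom (adjusted p = 0.16), not called in either. The first-day rise of *Cyp26a1* was larger in knockout cells by 1.69 ± 0.29 (adjusted p = 0.009), the opposite sign to *Meis2* and *Pknox2*. At day 0 *Cyp26a1* was lower in knockout cells (−1.70 ± 0.22, adjusted p = 0.00026, and 0.092 with the libraries of the comparison alone). The larger rise thus starts from this lower level, and unlike *Meis2* and *Pknox2* the gene was not called between the genotypes at day 1.

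Cell type markers also differed between the genotypes, some already at day 0. At that day the extra-embryonic endoderm sum was 11.4 to 25.6 TPM in wild-type and 9.60 to 10.9 TPM in knockout cells. The mesoderm sum was 2.45 to 4.06 and 5.53 to 7.27 TPM. By adjusted p alone, 2 of 6 endoderm markers were lower in knockout cells (11.9% of genes tested differed). Of the mesoderm markers, 1 was called higher (3.05% of genes tested were called). None of the pluripotency markers differed at day 0. The 6 markers of extra-embryonic endoderm had a summed level of 78.7 to 81.0 TPM in wild-type and 20.2 to 23.2 TPM in knockout cells at day 1, and of 549 to 598 and 276 to 317 TPM at day 3, with 1 of the 6 under 1 TPM in all libraries of either genotype at day 1. The summed level of the 6 pluripotency markers was higher in knockout cells, at 3587 to 3678 TPM against 2836 to 2922 TPM at day 1 and 510 to 578 TPM against 312 to 353 TPM at day 3. By adjusted p alone, 3 of the 6 were higher at day 1, and at day 3 there were 5 higher and 1, *Klf4*, lower (−0.82 ± 0.07). At day 3 the sum of 5 mesoderm markers was 87.9 to 92.6 TPM in knockout and 37.0 to 47.5 TPM in wild-type cells. Most of it was *Hand1* (mean 64.8 TPM in knockout and 30.4 TPM in wild-type cells). Of the 5, 2 were under 1 TPM in all libraries of either genotype at that day. The sum of 6 fibroblast markers was 80.6 to 94.2 TPM in knockout and 44.4 to 56.3 TPM in wild-type cells.

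The 5 neural markers summed to 91.4 to 103 TPM in wild-type and 96.9 to 102 TPM in knockout cells at day 1, which overlap, and to 101 to 111 and 135 to 156 TPM at day 3. These sums mix genes that moved in opposite directions from day 1 to day 3. In wild-type cells the mean of *Nes* rose from 7.94 to 87.3 TPM. The mean of *Tubb3* fell from 60.8 to 14.95 TPM and that of *Sox1* from 25.8 to 1.56 TPM. In knockout cells *Nes* rose from 5.28 to 111.8 TPM, while *Tubb3* fell from 66.5 to 26.3 TPM and *Sox1* from 26.7 to 3.42 TPM. The summed level of the 4 trophoblast markers stayed at or under 2.66 TPM up to day 1. At day 3 it reached 76.0 to 82.5 TPM in wild-type and 95.5 to 98.1 TPM in knockout cells, with *Elf5* at 0 in all wild-type libraries of that day. *Cdx2* went against this sum, at 7.20 to 8.98 TPM in wild-type and 3.67 to 5.34 TPM in knockout cells. By adjusted p alone, 1 of the 3 tested was higher in knockout cells at day 3, and none was called. *Postn* was at 0 in all libraries at day 0 and day 1. The part of these cell types in the differences of the *Meis*, *Pbx* and *Pknox* genes was not tested, and in bulk RNA fewer cells that express a gene and less RNA of it per cell cannot be told apart.

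Finally, the genes whose pattern was most like each member were listed by Pearson's r of log2(TPM + 1) over the 17 libraries. These libraries fall in 6 groups, so that r mostly reflects the group means, and no p is given. *Meis1* was most like *Arl4c* (r = 0.997), *Tshz1* (0.996) and *Pam* (0.996), *Meis2* like *Hoxb1* (0.992), *Dlk1* (0.992) and *Rhob* (0.992), and *Meis3* like *Lgals1* (0.987), *Ctdsp1* (0.986) and *Sox11* (0.986). *Pbx2* had *Hoxb5* (0.9902), *Pja1* (0.984) and *Nceh1* (0.984) as its nearest genes, *Pbx3* had *Vldlr* (0.941), *Slc48a1* (0.938) and *H2-Bl* (0.936), and *Pknox2* had *Prkaca* (0.976), *Sertad4* (0.972) and *Tmem150c* (0.970). *Tgif1* was most like *Usp10* (0.989), *Parp1* (0.986) and *Ybx3* (0.984). Nearest genes were not listed for *Pknox1* and *Tgif2*, whose group means spanned less than 2-fold.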

How the data were processed

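The 17 RNA-seq libraries (NEBNext Ultra kit, NovaSeq) came from R1/E embryonic stem cells. The deposited table gives TPM, which the authors made from gene length and reads mapped to the gene. The submitters' processing notes name HISAT2 2.1.0, StringTie 1.3.6 and GRCm38.p6, and whether counting used strand is not given in the sources used here. To recover reads, each TPM was multiplied by exon length (GENCODE M21, 54495 identifiers matched) and divided by the library's smallest step. Of values above 0, 95.9% to 96.7% came out whole within 0.01. A 3-read floor covers counting error only.

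The main test was limma 3.58.1 (R 4.3.3) on log2 values of the deposited TPM, with a pseudocount of 1, for the 21871 genes at 1 TPM or more in 2 or more libraries. It fitted 6 group means to all 17 libraries with a variance trend, and the Benjamini-Hochberg adjustment covered all genes tested within a comparison. A call needed an adjusted p under 0.05 and a 2-fold change. The code was tested on simulated data. The study's methods name a test of counts, so voom on recovered reads was an alternative here. The others were a pseudocount of 0.1, other filters (none, 5 TPM), quantile normalization, an equal median, robust variance, adjusted p alone, the libraries of the comparison alone, a replicate block and leaving out each library. The replicates are described as biological, of 1 line per genotype, and p-values measure the spread between them. Python 3.11.15 (numpy 2.4.6, pandas 2.3.3, matplotlib 3.10.9) made tables and figures.

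The members and lists were chosen with earlier results of these data known. The rule named all 9 members, *Usb1*, up to 4 genes with the largest change among those called in each other list, and the 3 genes most like a member. The sign of *Cyp26a1* was singled out after its values were seen. An item of the list of other TALE genes is not reported here.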

Additional observations from a re-analysis of the deposited data

Results flagged for a closer look

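In 8 tests the response to RA differed between wild-type and *Usb1* knockout cells at an adjusted p under 0.05 (limma, test of the difference itself over all genes tested). From day 0 to day 1 the change in knockout minus that in wild-type cells was −1.26 for *Meis2*, −1.45 for *Pknox2* and −0.46 for *Pbx2* on the log2(TPM + 1) scale. From day 1 to day 3 it was 1.68 for *Meis2*, 1.60 for *Pknox2*, 0.83 for *Meis1*, 0.48 for *Pbx2* and 0.25 for *Tgif1*. All genes tested had a median of −0.12 in the former and 0.13 in the latter. The knockout libraries at day 1 enter both, so the opposite signs are not separate evidence. No member passed for day 3 against day 0.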

How the results depend on the processing

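Over the 12 comparisons, counts of members called were recomputed under each alternative. By adjusted p alone the number was 3, 5 and 3 for knockout against wild-type cells at day 0, 1 and 3 (0, 2 and 0 with the 2-fold limit), 9 for wild-type cells at day 3 against day 1, 6, 8 and 6 for knockout cells at day 1, day 3 and day 3 against day 1, and 5 for the difference in response from day 1 to day 3. An equal median or quantile normalization left 1 gene at day 1 between the genotypes. For the difference in response from day 0 to day 1, the number was 1 with a pseudocount of 0.1, 1 with voom and 0 with quantile normalization, and for day 0 to day 3 it was 1 with quantile normalization.

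Leaving out 1 library at a time gave 2 to 4 members for the difference in response from day 0 to day 1, 0 to 1 for day 0 to day 3, and 0 to 1 between the genotypes at day 0, where the upper values are those without wild-type replicate 2 at day 0. Those fits keep only wild-type replicate 1 at day 0, the library that stood apart with 239 genes at 1 read. Over all genes, the numbers called against wild-type cells at day 0 hang on its 2 libraries, and leaving either out leaves that group with 1. Between the genotypes at day 0 the number was 668, and 501 to 682 without a library of any other group. For the difference in response from day 0 to day 3, the number was 529, and 368 to 570 without a library of any group other than wild-type day 0. The log2 fold change of *Meis1* at day 3 between the genotypes ranged from −0.037 to 0.16, and that of *Meis3* at day 0 from −0.16 to 1.55. Same-numbered replicates did not deviate together (mean r −0.005 over 40 pairs), so the numbers do not pair the samples, and a replicate block gave the main count in all 12 comparisons (2 at day 1 between the genotypes). At this depth *Meis1* and *Meis2* rest on 0 to 25 reads in the wild-type libraries at day 0.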
